A study of Mus musculus with 4 samples.

Results

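The regions described here are autosomal stretches of the mouse genome whose DNA methylation rose between birth and the end of suckling in colonic intestinal stem cells (ISCs) and in their differentiated progeny alike. They were selected on measured values. The genome was divided into 200-bp bins, and a bin was a member when it held at least 2 CpGs, had at least 20 methylation calls in each of 4 libraries, and rose in methylation level by 20 points or more from postnatal day 0 (P0) to postnatal day 21 (P21) in ISCs and in differentiated cells. Of 3418450 eligible bins, which were 69.2% of the autosomal bins with at least 2 CpGs, 14809 met the rule, or 0.433%. Adjacent member bins were merged into 12735 regions. Since the rise in level chose the bins, levels and rises of members are given as a description, and no test on them is used as support.

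Whole-genome bisulfite sequencing (WGBS) was performed on colonic cells of Lgr5-EGFP-CreER mice crossed with wild-type C57 mice. In these mice EGFP is expressed from the Lgr5 locus, so that EGFP marks the Lgr5-expressing stem cells at the crypt base. Cells positive for Lgr5-EGFP were collected as ISCs, and cells negative for Lgr5-EGFP but positive for the epithelial surface protein EpCAM were collected as differentiated epithelium, each at P0 and at P21. The 4 groups (ISC P0, differentiated P0, ISC P21, differentiated P21) held 1 library each, made from DNA pooled over mice, so there is no replicate and no test between ages or populations. All 4 groups came from the reporter cross and none was treated. The study's methods describe the P0 pool as litters and the P21 pool as Lgr5-EGFP-positive offspring. Whether littermates without the reporter were left out at P0 was not stated, and if they were kept, their stem cells fall into the differentiated P0 fraction, a part in the results that was not tested. The EpCAM sort takes every Lgr5-EGFP-negative epithelial cell, so differentiated cells are a mixture of absorptive and secretory types. The paper also describes mosaic expression in this line, with EGFP-negative crypts in adult mice. Stem cells of such crypts, if present at P0 or P21, would fall into the differentiated fraction, and their part was not tested. A change in the mixture with age cannot be told apart from a change within a cell type.

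In WGBS, bisulfite converts unmethylated cytosine to uracil while methylated cytosine is read as cytosine, and the methylation level of a bin is its methylated calls in percent of all calls at its CpGs. Most CpGs of mammalian DNA are methylated, whereas CpG islands (CGIs), which are stretches rich in CpGs that often lie at gene starts, are usually free of methylation. New methylation is set by the de novo methyltransferases Dnmt3a and Dnmt3b and copied at cell division by Dnmt1. Methylation at a gene start commonly accompanies silencing, whereas methylation within a gene body is often found in transcribed genes. Suckling is the period in which crypts form and multiply in the rodent colon, and the short-lived differentiated cells present at P21 all derive from stem cells, so a mark acquired by stem cells can be passed on to their progeny.

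Sequences from 7 of the regions are shown first, from CpG-poor introns to coding exons and a CGI between genes. They are not typical of members, since all come from runs of several bins and rose by more than the median member. Most belong to regions counted as CGI, whereas CGIs held 5.06% of member bins. None lies outside both genes and CGIs, where 40.7% of member bins lay. Each is 1 member bin of 200 bp read from the plus strand of the mm9 reference, with every CpG in capitals. The calls of its CpGs are those that chose the bin, and neighbouring CpGs share reads. A rise at all CpGs of a bin therefore follows in part from the choice. The first, chr9:114459201-114459400, lies in intron 1 of Trim71, which encodes an RNA-binding ubiquitin ligase of embryonic and stem cells.
Trim71: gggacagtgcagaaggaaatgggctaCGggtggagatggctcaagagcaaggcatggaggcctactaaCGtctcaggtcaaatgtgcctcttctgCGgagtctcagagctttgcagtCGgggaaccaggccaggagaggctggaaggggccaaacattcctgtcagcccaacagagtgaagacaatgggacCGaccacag
This bin held 5 CpGs, and its level was 6.91% in ISC P0, 6.08% in differentiated P0, 78.3% in ISC P21 and 71.8% in differentiated P21. All 5 CpGs were higher at P21 in both populations, with single CpGs at 0% to 18% in ISC P0 and at 66.7% to 86.2% in ISC P21.

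The bin chr5:28789201-28789400 lies in intron 1 of Shh, the hedgehog ligand made by gut endoderm, and has few CpGs, although the region it belongs to was counted as CGI.
Shh: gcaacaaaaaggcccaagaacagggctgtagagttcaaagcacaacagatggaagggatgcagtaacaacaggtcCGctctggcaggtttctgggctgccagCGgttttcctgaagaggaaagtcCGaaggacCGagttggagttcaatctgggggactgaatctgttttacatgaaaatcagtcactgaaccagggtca
Its level was 21.9% in ISC P0 and 20.8% in differentiated P0, against 89.4% in ISC P21 and 88.2% in differentiated P21. At either age the populations were within a few points of each other, and the 4 CpGs all rose in both.

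The next 4 bins are CpG-rich, and each also belongs to a region counted as CGI. The bin chr4:41445001-41445200 is coding sequence in the last exon of AI464131 (also named Net37 or Myorg), a member of the glycosidase family. The bin chr3:86350801-86351000 lies at Mab21l2, a developmental gene nested in an intron of the larger gene Lrba. The bin chr12:58651201-58651400 lies upstream of Foxa1, a forkhead transcription factor of endoderm. The bin chr12:112513601-112513800 belongs to Amn, which encodes amnionless, a subunit of the receptor for protein-bound vitamin B12.
AI464131: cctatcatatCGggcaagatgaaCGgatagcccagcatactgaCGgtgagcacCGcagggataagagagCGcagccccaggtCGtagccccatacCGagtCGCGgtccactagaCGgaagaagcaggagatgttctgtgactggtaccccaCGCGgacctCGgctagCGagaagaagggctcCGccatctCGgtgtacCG
Mab21l2: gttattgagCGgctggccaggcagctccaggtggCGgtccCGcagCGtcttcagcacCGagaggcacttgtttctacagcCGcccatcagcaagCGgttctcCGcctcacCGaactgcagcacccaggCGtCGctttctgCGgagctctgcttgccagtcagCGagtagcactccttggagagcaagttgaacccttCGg
Foxa1: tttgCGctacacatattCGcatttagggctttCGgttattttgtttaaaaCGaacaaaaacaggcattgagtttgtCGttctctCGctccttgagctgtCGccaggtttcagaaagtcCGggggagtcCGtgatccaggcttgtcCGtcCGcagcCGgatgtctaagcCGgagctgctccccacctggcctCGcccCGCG
Amn: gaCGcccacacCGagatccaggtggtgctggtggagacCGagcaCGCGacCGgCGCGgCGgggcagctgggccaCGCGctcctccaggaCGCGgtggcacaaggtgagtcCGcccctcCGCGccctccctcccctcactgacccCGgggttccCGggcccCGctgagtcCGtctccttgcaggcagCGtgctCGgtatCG
The AI464131 bin held 17 CpGs, all of which were higher at P21 in both populations, and rose from 10.7% to 69.2% in ISCs and from 18% to 67% in differentiated cells. Single CpGs of this bin had 5 to 16 calls in ISC P0. At Mab21l2, 14 of 14 CpGs were higher at P21 in both populations, with bin levels of 29.8% and 24.1% at P0 (ISC and differentiated) and of 79.0% and 77.2% at P21. The Foxa1 bin rose at 16 of 16 CpGs, from 33.8% and 32.5% to 86.5% and 82.6%. In the Amn bin 22 of 23 CpGs were higher at P21 in both, and the level went from 12.2% and 20.5% to 47.0% and 57.8%, so this dense island remained about as often unmethylated as methylated at P21.

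A coding stretch in the last exon of Mycn, the proto-oncogene encoding N-Myc, is the last sequence, at chr12:12944201-12944400.
Mycn: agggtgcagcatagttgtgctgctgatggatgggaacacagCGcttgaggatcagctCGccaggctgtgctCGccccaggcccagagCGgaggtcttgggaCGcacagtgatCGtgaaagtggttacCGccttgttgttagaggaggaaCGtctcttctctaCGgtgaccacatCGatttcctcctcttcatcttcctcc
Its 10 CpGs were all higher at P21 in both populations, and the bin stood at 31.3% in ISC P0, 31.3% in differentiated P0, 83.8% in ISC P21 and 81.0% in differentiated P21. Single CpGs of this bin had 6 to 28 calls per library, so their levels are loosely measured.

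DNA levels within 500 bp of the starts of marker genes of several cell types were read in the 4 libraries. The starts of the epithelial genes Epcam, Cdh1, Vil1, Krt8, Cdx1, Cdx2, Lgr5 and Ascl2 were methylated at 0% to 5.28% in all 4 libraries, whereas Krt20 stood at 50.2% to 56.3%. Among immune markers, Ptprc, Cd3e, Cd79a, Cd52 and Lcp2 lay between 68.3% and 89.2%, and Coro1a lay between 3.79% and 5.57%. The starts of the endothelial genes Pecam1, Cdh5 and Tie1 were at 51.4% to 70.7%. Mesenchymal markers ranged from 0.911% at Pdgfra to 52.1% at Acta2. Pdgfra (0.911% to 2.39%) and Col1a2 (1.79% to 3.02%) lay in the range of the low epithelial starts. A low level therefore did not single out epithelium, and these levels cannot check the labelled cell type. None of the autosomal marker starts examined contained a member bin. Ptprc, the pan-leukocyte gene, was 78.3% in ISC P0, 78.5% in differentiated P0, 74.5% in ISC P21 and 68.3% in differentiated P21. The part of other cells in the gains was not tested.

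Bins rising by 20 points or more in both populations were fewer than bins rising in each population. These shares do not measure how much of the gain was shared, since a bin can miss 20 points in a population through counting error. A rise of 20 points or more was found in 2.61% of eligible bins in ISCs and in 1.71% in differentiated cells, and a fall of 20 points or more in both populations was found in 1.11%, so bins falling in both (38097) outnumbered those rising in both. The populations moved in opposite directions by at least 20 points in 0.108% of bins, which gives 4.02 bins rising in both for each bin moving oppositely. Whether a single pool of mice gave both populations at each age was not stated in the sources used here, and if it did, the populations are not independent samples of the change with age. This ratio grew with depth. Where the shallowest library had 20 to 29 calls it was 1.36, at 60 to 99 calls it was 31.0, and at 200 calls or more, where 479 bins rose in both, only 2 moved oppositely. Shallow bins had less exact levels, and their share of members was also higher, at 0.513% of bins with 20 to 29 calls against 0.403% with 40 to 59 calls.

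**Figure D1:**
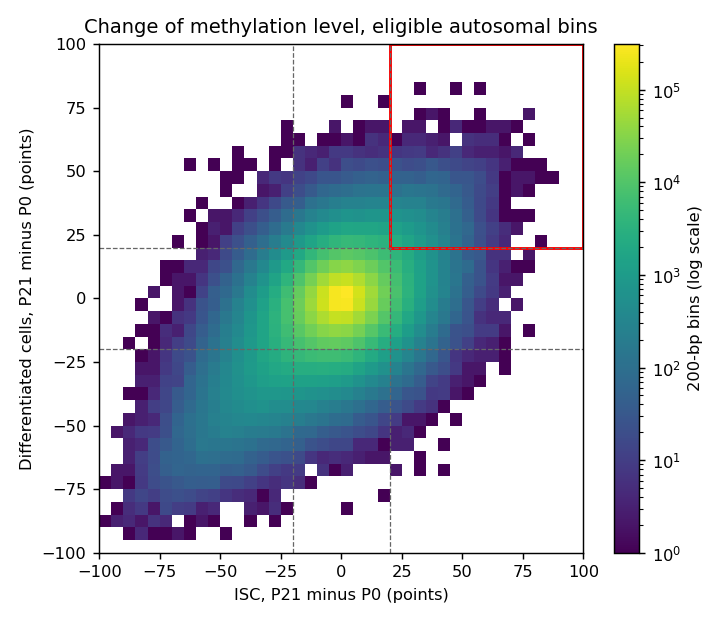
Change in methylation level from P0 to P21 in ISCs (horizontal axis, points) and differentiated cells (vertical axis, points) for 3418450 autosomal 200-bp bins, coloured by the number of bins on a log scale. The dashed lines mark 20 points in either direction and the red box holds the 14809 bins rising in both populations.

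As the rule picks high values of both differences, the rise of members includes counting error that favoured them. The plus and minus strands give separate calls of the same libraries, so bins were also chosen by the same 20-point rule on one strand and read from the other. With at least 10 calls per strand in each library, the 8895 bins chosen on the plus strand had a median rise of 29.3 points in ISCs and 27.5 in differentiated cells on that strand, and of 15 and 13 points on the minus strand. On the minus strand 66.8% of them rose in both populations and 22.3% rose by 20 points or more in both. With at least 40 calls per strand, a minimum chosen after the data were seen, the 972 bins chosen on the plus strand had medians of 26.4 and 22.4 points on the minus strand, where 90.8% rose in both and 44.8% rose by 20 points or more in both. The choice on the minus strand gave values within 2 points of these. Single bins near 20 calls are therefore loosely measured, while the deeper bins kept most of their median rise in calls that had not selected them, although under 50% of them met the rule again. Both strands come from the same pooled DNA and are no biological replicate.

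Member bins began at intermediate levels. Their median level was 40% in ISC P0 and 40.8% in differentiated P0, and reached 71.8% in ISC P21 and 70.5% in differentiated P21, where all eligible bins had medians of 85.7%, 85.5%, 85.9% and 85.3% in the same order. The interquartile range of the members was 26.6% to 52.8% in ISC P0 and 59.3% to 82.4% in ISC P21. The median rise was 28.3 points in ISCs and 26.6 points in differentiated cells. Only 489 bins (3.30%) rose by 40 points or more in both populations, and 82 by 50 points or more.

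The level at P0 partly follows from the rule, because a bin above 80% cannot gain 20 points. Below that limit the share of members still differed widely. The share of bins moving oppositely differed too, from 0.000688% at 0% to 5% at P0 to 0.303% at 20% to 40% and 0.545% at 40% to 60%. Counting error of a level is largest at middle levels, and its part in these differences was not tested. Of bins at 20% to 40% at P0 (both populations pooled), 4.51% were members (95% exact binomial interval 4.39% to 4.63%), against 2.81% at 40% to 60%, 1.06% at 5% to 10%, and 0.0998% at 0% to 5%. Intervals here and below cover counting of bins only, and neighbouring bins are not independent. Members nearly free of methylation at birth were thus uncommon: 324 bins (2.19%) were under 10% in both populations at P0, against 4.82% of eligible bins. A change from below to above 50% in both populations was seen in 6278 members (42.4%) and in 0.505% of eligible bins, a contrast that the rule favours. Of the members 3074 (20.8%) ended above 80% in both, against 56.3% of eligible bins.

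Differences between the populations were somewhat wider in members than in all eligible bins. The difference of differentiated cells minus ISCs had a median of 0.574 points at P0 and of -1.28 points at P21, with SDs over bins of 9.54 and 8.90 points, against SDs of 8.41 and 7.98 points in all eligible bins. Both populations were within 10 points of each other at both ages in 59.6% of members and in 69.0% of eligible bins. Among members the share was 72.7% in CGIs and 58.9% elsewhere. Counting error is larger at the middle levels of members than near the levels of most eligible bins, and its part in the wider differences was not tested. Differentiated cells were above ISCs in 52.3% of members at P0 and in 43.0% at P21, against 48.0% and 46.2% of eligible bins. The rise was larger in ISCs in 57.3% of members and in 51.1% of eligible bins. At the threshold, 2295 bins had a smaller rise of 20 to 21 points and 2604 had 19 to 20 points. Of bins with 100 calls or more in every library, the one just inside (chr2:155205601-155205800) rose by 24.84 points in ISCs and 20 in differentiated cells, and the one just outside (chr7:77495201-77495400) rose by 20.88 points in differentiated cells and by just under 20 in ISCs.

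CpG number had a modest relation with membership. Of bins with 2 CpGs, 0.398% were members. The share was 0.570% (0.546% to 0.595%) at 6 to 9 CpGs and 0.334% (0.283% to 0.392%) at 15 or more, so it was highest at middle density. Many of the densest bins were nearly free of methylation at birth (62878 bins with 10 or more CpGs were under 10%), and when bins were compared within a range of P0 level the order changed. Among bins at 10% to 40% at P0, 3.56% of those with 2 or 3 CpGs were members, 4.22% of those with 4 to 9, and 9.10% (8.19% to 10.1%) of those with 10 or more. Among bins under 10% at P0 the order was the other way, from 0.511% at 2 or 3 CpGs to 0.0779% at 10 or more.

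**Figure D2:**
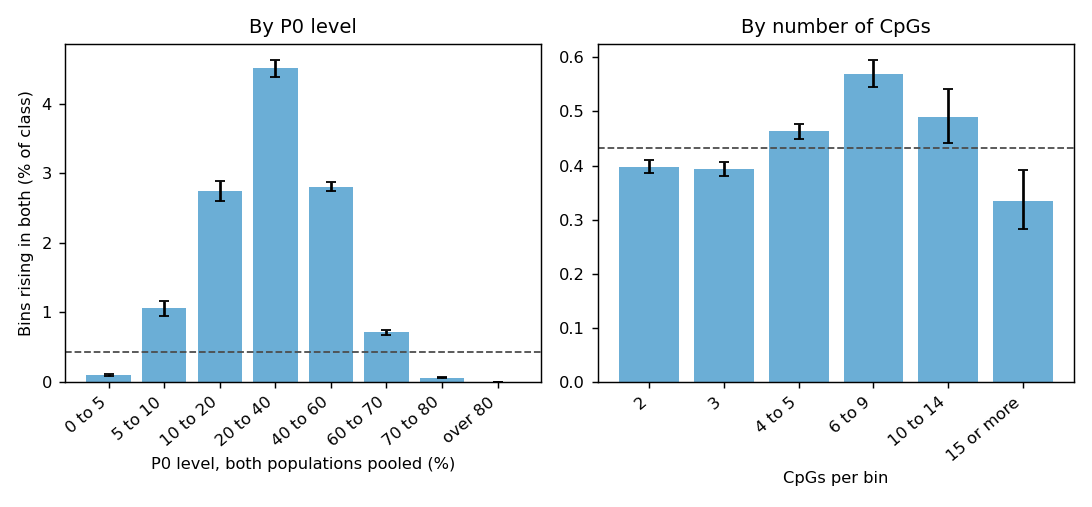
Share of eligible bins that rose in both populations, in percent of each class (bars, with exact binomial 95% intervals), by P0 level (left) and number of CpGs per bin (right). The dashed line is the share among all eligible bins, 0.433%. The share peaks at 4.51% for bins at 20% to 40% at P0, and the class over 80% holds no member because of the rule.

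CpG islands, counted here as 500-bp windows with at least 25 CpGs, held 750 member bins, or 5.06% of members against 4.40% of eligible bins. This direction turned under other settings, with 10.3% against 10.4% where 4 CpGs were required, 3.80% against 4.40% at a rise of 15 points, 4.37% against 4.40% after thinning calls to the lowest library, 1.99% against 2.31% with island windows of 35 CpGs and 2.88% against 2.95% with islands set by sequence. The island shores, taken as the 2000 bp on either side, held 13.0% of members against 6.41% of eligible bins, and 0.881% (0.842% to 0.921%) of shore bins were members. Shores also held 8.58% of the bins falling in both populations. Island members started lower than the others, with medians of 28.2% in ISC P0 and 29.6% in differentiated P0, and 24.8% of them were under 20% in both populations at P0. They ended at medians of 63.1% in ISC P21 and 60.9% in differentiated P21. All eligible island bins had medians of 1.99%, 1.75%, 2.31% and 2.0% in ISC P0, differentiated P0, ISC P21 and differentiated P21, so the gain touched a small and already partly methylated group of islands. Calls were denser in islands: 63.6% of island members had 100 calls or more in all libraries, against 17.6% of members elsewhere.

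Genes held more of the members than of the background. The 5' region of a gene was set as 1000 bp before its start through its first exon, with the last exon and then the rest of the gene body taken after it. Genes of a single exon, such as Zcchc3, were therefore counted as 5' region over their whole length, 3' UTR included. Gene bodies held 52.1% of members against 42.8% of eligible bins, last exons 3.0% against 1.86%, 5' regions 3.07% against 2.65%, and sequence outside protein-coding genes 41.8% against 52.6%. Within gene bodies it was introns (49.8% against 40.2%) and not inner exons (2.30% against 2.67%) that held more than their share. Bins falling in both populations also lay more often in gene bodies (47.4%) and their introns (45.4%) than eligible bins did. Last exons (1.63%) and 5' regions (1.77%) held less than their share of these falling bins. Around gene starts, 0.337% of bins within 500 bp were members, the share rose to 0.797% between 500 and 2000 bp, and it fell again to 0.335% beyond 50000 bp. The share of bins falling in both populations also peaked there, at 0.548%, 1.57% and 0.864% in the same order.

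Inside islands the share differed more by position than outside them. Of the 4979 eligible CGI bins in last exons, 122 were members, or 2.45% (2.04% to 2.92%). The share was 0.720% for CGI bins in gene bodies, 0.333% for CGI bins outside genes and 0.240% (0.198% to 0.287%) for CGI bins in 5' regions. Outside islands the order was another, with 0.806% in 5' regions, 0.55% in last exons, 0.520% in gene bodies and 0.344% outside genes. As bins at intermediate P0 level are favoured by the rule, the comparison was repeated for bins at 10% to 80% at P0, where CGI bins of last exons again had the highest share at 8.25% (6.82% to 9.87%), followed by CGI bins of gene bodies at 4.98% and of 5' regions at 2.57%. Of these island classes, last-exon bins thus had the highest share at either setting, both with the main island definition. Their share under the other island definitions was not tested. Over all eligible bins, the share of members still ran from 4.51% at 20% to 40% at P0 to 0.0584% at 70% to 80%. The range of 10% to 80% therefore does not make the classes equal in P0 level, and the part of P0 level in their order was not tested. The 19 autosomes ranged from 0.374% to 0.549% of bins.

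**Figure D3:**
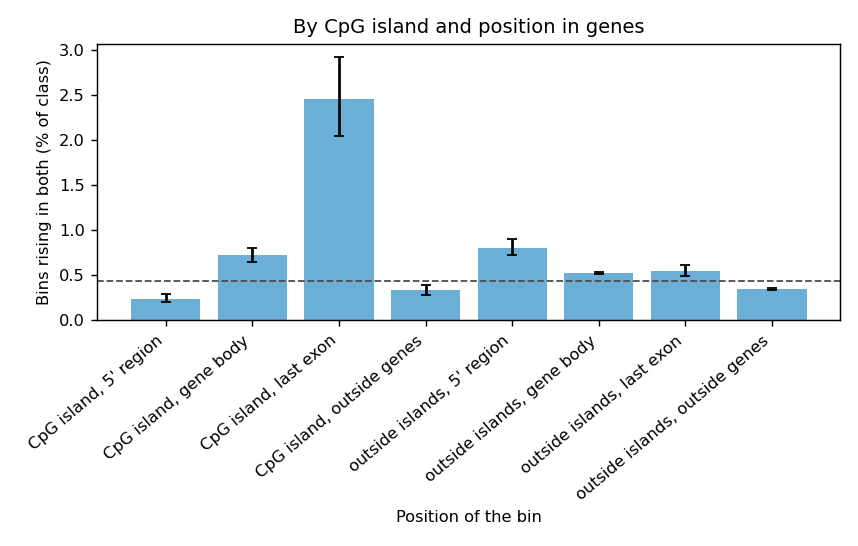
Share of eligible bins that rose in both populations, in percent of each class (bars, with exact binomial 95% intervals), by CpG island and position in protein-coding genes. The dashed line is 0.433%, the share of all eligible bins. CGI bins in last exons stand highest at 2.45% and CGI bins in 5' regions lowest at 0.240%. The 5' regions include the whole length of genes with a single exon.

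Most regions were short. Single bins made up 11276 of the 12735 regions (88.5%), and 1459 regions of 2 bins or more held 23.9% of member bins, with a longest run of 12 bins. Bins falling in both populations formed runs to a like extent (26.3% of bins in runs of 2 or more), whereas 0.488% of the bins moving oppositely did. Bins beside those that were chosen rose as well. In regions of 2 bins or more the mean rise was 33.8 points in ISCs and 31.5 in differentiated cells. The adjoining bins at 200 bp, which had not met the rule, rose by 13.5 and 12.2 points, those at 600 bp by 5.54 and 4.89, and those at 2000 bp by 2.13 and 1.68. By the study's methods, sequenced fragments could be longer than a bin. Calls in the nearest bins can thus come from the molecules that chose the members, and are no independent reading. At P0 the mean level dipped from 63.8% at 2000 bp to 34.1% inside the regions in ISCs and from 63.4% to 34.5% in differentiated cells. At P21 the level inside was 68.0% and 66.0%, next to 65.9% and 65.1% at 2000 bp. The inside bins were chosen for a low P0 level and a higher P21 level in these same calls, and the flanks are bins that did not meet the rule, so the shape inside against outside is set in part by the choice. In the runs of 5 bins or more the inside level at P21 was above the flank, at 68.0% and 65.7% against 58.3% and 58.9% at 2000 bp, and in CGI runs it was 65.2% and 63.0% against 57.9% and 57.3%.

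**Figure D4:**
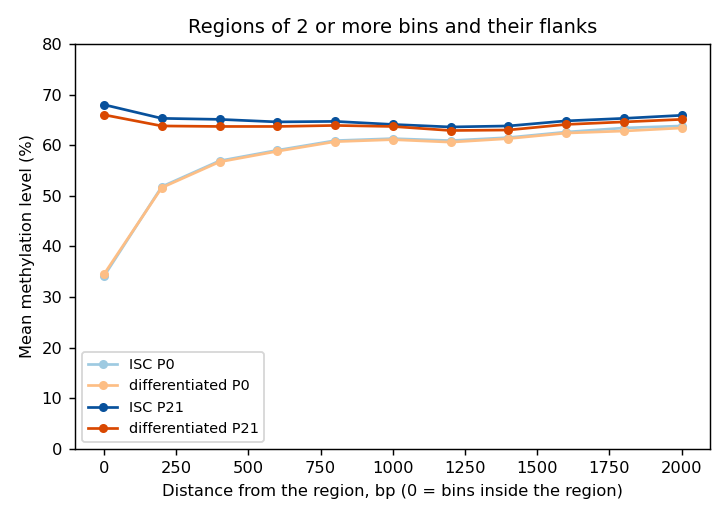
Mean methylation level (vertical axis, percent) inside the regions of 2 or more bins (0 on the horizontal axis) and in eligible non-member bins at 200 to 2000 bp on either side, for the 4 libraries. At P0 both populations dip to 34.1% and 34.5% inside the regions, and at P21 they stand at 68.0% and 66.0% there. The rule chose the inside bins for this rise.

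Among the longest regions, named by a rule on length, rise, position and gene lists, the 12-bin run chr2:152236601-152239000 covered 1309 bp of the 3' UTR of Zcchc3, a nucleic acid-binding zinc finger gene of a single exon on the minus strand, and sequence past its end. Its 64 CpGs stood at 20.3% in ISC P0 (95% Wilson interval 18.2% to 22.7%), 24.7% in differentiated P0 (22.9% to 26.5%), 64.2% in ISC P21 (61.7% to 66.6%) and 66.5% in differentiated P21 (64.4% to 68.5%), with 1239 to 2244 calls per library. In every named region each population was higher at P21 than at P0, which follows from the choice of its bins. The AI464131 region (chr4:41444601-41446600, 160 CpGs) lay wholly in coding sequence of exon 2 of 2, and rose from 20.9% (19.4% to 22.5%) to 67.8% (66.2% to 69.4%) in ISCs and from 25.2% (24.3% to 26.1%) to 68.7% (67.8% to 69.7%) in differentiated cells. It was the longest CGI region in a last exon and had 2614 to 9614 calls per library. Of the 42 eligible bins in or within 2000 bp of AI464131, 10 rose and 11 fell in both populations.

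The other regions of 10 bins were at Baiap2l2, Mab21l2 and Btn2a2. At Baiap2l2, which encodes a protein that links membranes to actin in epithelial cells, the CGI region chr15:79091201-79093200 spanned exons 8 to 10 and the introns around them, and rose from 30.5% to 69.3% in ISCs and from 26.7% to 67% in differentiated cells. At Mab21l2, within intron 40 of Lrba, the region chr3:86350201-86352200 rose from 41.8% to 77.0% and from 37.1% to 72.8%. Outside genes, 16885 bp from the butyrophilin gene Btn2a2, the region chr13:23597601-23599600 rose from 26.2% to 61.5% in ISCs and from 18.6% to 50.2% in differentiated cells, and was here 11.3 points lower in differentiated cells at P21.

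Mycn gained over its last intron and last exon (chr12:12943401-12945000, 8 bins), from 28.7% to 69.5% in ISCs and from 30.1% to 71.8% in differentiated cells. Ddc, which encodes the decarboxylase that makes dopamine and serotonin, gained around exon 12 (chr11:11721601-11723200), from 47.3% to 77.4% and from 46.6% to 81.0%. Duoxa2, the maturation factor of the hydrogen peroxide-producing oxidase Duox2 of the gut surface, gained over exons 2 and 3 (chr2:122125201-122126600), from 26.2% to 74.8% and from 31.4% to 68.5%. In Pex14, a gene of peroxisome import, intron 2 (chr4:148431601-148433000) rose from 43.9% to 71.9% and from 42.5% to 71.7%. At and past the 3' end of the protocadherin gene Pcdhgc5 the level went from 19.8% to 61.7% in ISCs and from 22.8% to 62.3% in differentiated cells.

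Shh carried 2 of the 12 longest regions, both counted as CGI. The shorter one, with 6 bins, tied with other regions of 6 bins and was placed by its rise. The one in intron 2 (chr5:28786201-28787600) was at 17.3% in ISC P0, 22.2% in differentiated P0, 64.4% in ISC P21 and 61.1% in differentiated P21. The one in intron 1 (chr5:28788801-28790000), which holds the Shh sequence shown above, was at 27.2%, 21.0%, 81.8% and 80% in that order. Both overlap the annotated lincRNA 9530036O11Rik. Of the 50 eligible bins in or within 2000 bp of Shh, 20 were members.

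Ranked by the population that rose less, the largest rise among regions of 3 bins or more was in intron 1 of Trim71. The region chr9:114459001-114460000 rose from 18.7% (15.9% to 21.8%) to 82.9% (79.6% to 85.7%) in ISCs and from 11.6% (9.39% to 14.4%) to 75% (71.6% to 78.1%) in differentiated cells, and a further region of the same intron, chr9:114468201-114468800, rose from 20.9% to 75.3% and from 11.8% to 78.0%. Intron 1 of Shh was also among the 6 largest. The others were a region 8933 bp upstream of Nfix, which encodes a nuclear factor I protein (chr8:87307201-87307800; 14.4% to 70.8% and 13.6% to 64.2%), intron 13 of Tmco4 (chr4:138595801-138596400; 34.4% to 85.6% and 31.3% to 81.0%) and intron 3 of Tpcn1, a gene of an endolysosomal cation channel (chr5:121008601-121009200; 21.8% to 70.9% and 17.3% to 73.3%). Outside genes the longest CGI region was 3693 bp upstream of Foxa1 (chr12:58650801-58652000), which rose from 39.8% to 85.8% in ISCs and from 33.2% to 81.6% in differentiated cells.

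**Figure D5:**
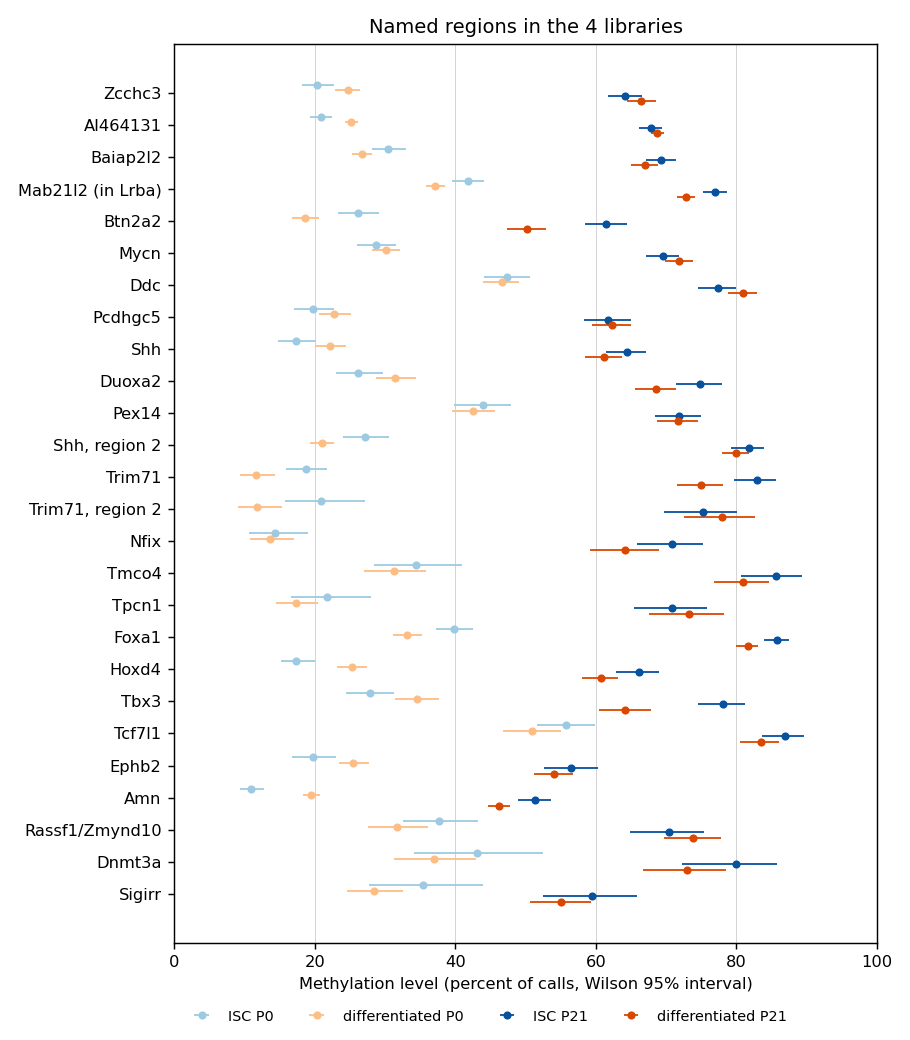
Methylation level (horizontal axis, percent of calls) of the 26 named regions in the 4 libraries, with Wilson 95% intervals that cover counting error only. In each region the P21 level (dark) of a population lies above its P0 level (light), which follows from the rule that chose its bins.

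In all, 7055 regions (55.4%) overlapped a protein-coding gene, and 3463 genes were the main gene of at least 1. Of 21035 protein-coding genes with an eligible bin in or within 2000 bp of them, 19.0% had a member bin, and 0.539% of their bins were members, counting a bin once for each gene it belongs to. The gene with the most member bins was Gm20388 (88), whose annotated span covers many other genes and holds 14112 eligible bins, so that its share was 0.624%. Trim71 followed with 44 of 191 bins (23.0%), and Msi2, which encodes the RNA-binding protein Musashi-2 of stem cells, with 37 of 1113 (3.32%). In Msi2 27 bins fell in both populations, and in Trim71 none did. Chosen after their values were seen, Irx4 (15 of 52 bins), Rcc2 (20 of 105), Duox2 (14 of 82) and Nfix (31 of 206) were other genes with a high density of members.

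Developmental regulators had more member bins than genes in general. Of the bins of 102 homeobox genes 1.70% were members, but they lay in 23 of these genes, or 22.5% against 19.0% of all genes, so the members were concentrated in few of them. With each bin counted once, since Hox genes overlap, 86 of 5638 bins (1.53%) were members, against 0.534% of the bins of all protein-coding genes. Besides the 15 bins of Irx4, Hoxd4 had 10. The annotated span of Hoxa3 also held 10, but it covers neighbouring Hoxa genes, and the regions there were at Hoxa5, Hoxa6 and Hoxa7. The longest homeobox region covered part of exon 5 and intron 5 of Hoxd4 (chr2:74565001-74566200), and rose from 17.4% to 66.1% in ISCs and from 25.3% to 60.7% in differentiated cells. Of the bins of Tbx, Fox, Sox and Gata genes 1.35% were members, in 20 of 59 genes. Of these regions one of the longest, with 4 bins, lay 1427 bp upstream of Tbx3, a T-box gene, within the transcript Gm2301 (chr5:120118801-120119600), and went from 27.8% to 78.1% in ISCs and from 34.5% to 64.2% in differentiated cells, where it ended 13.9 points lower.

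Signalling genes had a share in the same range, beside 0.539% of bins and 19.0% of genes over all protein-coding genes. Notch, BMP and hedgehog genes had members in 1.44% of bins and in 25 of 64 genes. The most were in the Notch coactivator Maml3 (33 of 1190 eligible bins) and Shh (20 of 50), followed by the BMP inhibitor Smad6 (9 of 252). Wnt pathway genes had members in 1.12% of bins and in 27 of 65 genes, with falls in both in 1.84% of bins against 1.21% for all genes. Their most member bins were in the Wnt5a receptor Ror2 (22 of 558 eligible bins) and the R-spondin receptor Lgr4 (10 of 186). One of the longest Wnt regions, with 4 bins, lay in intron 3 of the repressor Tcf7l1 (chr6:72737201-72738000) and rose from 55.8% to 86.9% in ISCs and from 50.9% to 83.5% in differentiated cells. Lgr5 itself had 1 member bin of 292, in its gene body (chr10:114926601-114926800), at 22.8% in ISC P0, 26.8% in differentiated P0, 52.7% in ISC P21 and 53.0% in differentiated P21. Ascl2, the stem cell transcription factor, had 1 of 22 bins, which lay outside the gene and rose from 42.9% to 96.4% in ISCs and from 33.2% to 88.1% in differentiated cells.

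Genes of gut identity and function were less uniform. Intestinal and stem cell regulators had members in 0.892% of bins and in 18 of 50 genes, beside 0.539% of bins and 19.0% of genes over all protein-coding genes, while 6.51% of their bins fell in both populations, against 1.21% for all genes, so loss prevailed there. One of their longest regions, with 3 bins and counted as CGI, was in intron 3 of Ephb2, the receptor that positions cells along the crypt (chr4:136311201-136311800; 19.7% to 56.5%, and 25.5% to 54.0% in differentiated cells). Genes of colonic transport and of the change from suckling to weaning had members in 1.05% of bins and in 21 of 54 genes, while 3.28% of their bins fell in both. Gains were led by the potassium channel gene Kcnq1 (13 bins) and Amn (7). At Amn the region chr12:112512601-112513800 spanned exons 5 to 10, and rose from 11% (9.42% to 12.8%) to 51.3% (49.0% to 53.6%) in ISCs and from 19.5% (18.4% to 20.7%) to 46.2% (44.6% to 47.8%) in differentiated cells.

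The remaining lists lay near the background of 0.539% of bins. Their share of genes with a member bin ranged from 17.9% to 37.0%, beside 19.0% over all protein-coding genes. Genes often hypermethylated in colorectal cancer had 0.543% in 17 of 46 genes (37.0%), and Sept9 alone held 19 of their 49 member bins. One of their longest regions, with 2 bins, was in the shared stretch of Zmynd10 and the upstream region of the tumour suppressor Rassf1 (chr9:107452801-107453200; 37.7% to 70.4% and 31.7% to 73.9%). The DNA methylation machinery had 0.564% in 7 of 22 genes, among them Dnmt3a (6 of 298 bins), with a region in intron 1 (chr12:3809401-3809800) that rose from 43.1% to 79.9% and from 37.0% to 73.0%. Immune and microbial sensing genes had 0.55% in 9 of 46 genes, with the longest region at Sigirr, an inhibitor of interleukin-1 and Toll-like receptor signals (chr7:148280601-148281000; 35.4% to 59.4% and 28.4% to 55%). Glycosyltransferases and glycan enzymes had 0.445% in 26 of 102 genes (25.5%), led by AI464131 with 10 of 42 eligible bins, although 11 bins of AI464131 fell in both populations. Mucosal secretory genes had 0.410% in 7 of 39 genes (17.9%).

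Short sequence motifs were counted in the 200-bp bins on both strands, as letters only. The motif GGGCGG, bound by Sp and Klf factors, was in 8.36% of member bins and 5.13% of eligible bins. The Cdx2 motif TTTATNG was in 12.1% against 8.91%, the forkhead motif TGTTTAC in 4.52% against 2.71%, and the CTCF core AGGGGGC in 4.13% against 2.45%. Because CpG number differs between the sets, the shares were also read within classes. At 4 to 9 CpGs they were 11.6% against 6.56% for GGGCGG, 11.6% against 8.53% for Cdx2, 4.57% against 2.88% for forkhead and 4.54% against 2.63% for CTCF. At 10 or more CpGs only the CTCF core of these was more frequent in members (9.48% against 6.48%). The NRF1 motif GCGCATGC was less frequent in members, at 0.263% against 0.565%, a difference also seen within bins of 4 to 9 CpGs (0.438% against 0.915%). The other motifs, like NRF1 itself, were within 1 point of the background over all bins. The AP-1 letters TGANTCA stood at 6.53% of members against 5.82%. The GATA letters AGATAA stood at 9.29% against 9.53%. The E-box CACGTG was in 3.84% against 4.16%, and in 4.67% against 5.71% at 4 to 9 CpGs. The Hnf4a letters CAAAGTC were in 3.14% against 3.07%. The ETS letters CCGGAAGT were in 0.297% against 0.316%. The CRE letters TGACGTCA were in 0.23% against 0.285%, and in 0.387% against 2.10% at 10 or more CpGs. These are shares of bins that hold the letters and no measure of binding.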

How the data were processed

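WGBS libraries of 4 groups, with 1 library of pooled DNA each, were analysed. Per the labels and the study's methods, the authors trimmed paired-end reads and mapped them to mm9 with Bismark (Bowtie is also listed), and neither versions nor duplicate removal were stated in the sources used here. For both strands of each CpG the authors deposited total and methylated call counts with their ratio as a fraction, and levels were recomputed from the counts. Total calls were 1023427645 to 1188114423 per library, of which 50.5% to 63.7% lay at positions with over 1000 calls. Eligible bins had medians of 64.0 to 98.0 calls per library, and 24 member bins exceeded 1000 calls. If duplicates remained, calls are fewer molecules than counted.

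Positions were matched to the reference of the same build, strands were summed, and 200-bp bins were formed with numpy 2.4.6. Positions at no reference CpG (0.465% to 0.850%) were left out. Genes came from GENCODE M1 (mm9), with the longest coding transcript for each of 21418 autosomal genes. AI464131 was paired with its other names through RefSeq. Exact binomial and Wilson intervals came from scipy 1.17.1 and cover counting error only. No test was made between groups, except a two-sided Fisher exact test per bin with Benjamini-Hochberg adjustment as an alternative, replaced by a chi-square test where a library had over 20000 calls, which compares libraries and not conditions. Regions were named by rule: the 12 longest, the 6 with the largest smaller rise among those of 3 bins or more, the longest CGI region of each position class, the 3 genes with most member bins and the longest region of each gene list. Ties were broken by the larger rise of the population that rose less, then by position. The members and lists were chosen with earlier results of these data known. Scripts were tested on simulated data. A single gene of the marker list is not reported here.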

Additional observations from a re-analysis of the deposited data

Results flagged for a closer look

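Chromosome X was outside the rule and was analysed separately as a signal in data not otherwise used. On it 196 of 91898 eligible bins rose by 20 points or more in both populations, or 0.213% (95% exact binomial interval 0.184% to 0.245%). The share of autosomal bins was 0.433%, and the difference was not tested. A count of 0 would have allowed up to 0.00326%, a limit that any chromosome with more than a few such bins passes. The sexes of the pooled mice were not stated in the sources used here, and their part in the difference was not tested.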

How the results depend on the processing

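With 1 library per group, counting error and choice of threshold are the limits that could be examined. The number of member bins was 9329 with 40 calls required, 6688 with 4 CpGs, 34855 at 15 points, 2763 at 30 points and 7387 where Fisher's exact test was also required, which uses the calls that chose the bins and compares libraries only. Bins rising in both per bin moving oppositely were 1.85 with 10 calls, 16.1 with 40 calls, 11.9 with 4 CpGs, 2.17 at 15 points, 13.3 at 30 points, 2.30 after thinning calls to the lowest library, and 37.1 with Fisher's test. The CGI share of members (5.06%, against 4.40% of eligible bins) moved to either side of its background. It was 3.92% with 10 calls (eligible 3.82%), 7.32% with 40 calls (6.13%), 10.3% with 4 CpGs (10.4%), 3.80% at 15 points, 8.07% at 30 points, 4.37% after thinning, 8.73% with Fisher's test, 1.99% with island windows of 35 CpGs (2.31%) and 2.88% with islands set by sequence (2.95%), so whether islands hold more than their share depends on these settings. The last-exon share of members exceeded that of eligible bins under each of the 10 alternatives run for it, from 2.46% against 1.86% at 15 points to 4.59% against 2.66% with 4 CpGs. Read from the strand that had not chosen the bins, the median rise was 15 points in ISCs and 12.9 in differentiated cells, and 25.7 and 22.7 with 40 calls per strand, which was added after seeing the data. Rises of the named regions were 22.8 to 66.2 points on a grid shifted by 100 bp, which rereads the calls that chose them. The cause of the other changes was not tested. No paired analysis was possible because the labels give nothing that pairs the libraries, and the sources used here do not state whether ISCs and differentiated cells of an age came from the same mice.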

Other observations

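Since Trim71, Msi2 and Mycn stood out, genes of fetal and stem cell growth related to them were looked up after those values were seen. Among RNA-binding proteins, Igf2bp1 had member bins at 17 of 168 bins (10.1%), Igf2bp3 at 5 of 237 (2.11%) and Igf2bp2 at 2 of 266 (0.752%). Bins falling in both populations numbered 1, 4 and 10 in these genes, in that order. The chromatin protein gene Hmga2 had 14 of 343 (4.08%), and the ARID factors Arid3a and Arid3b had 12 of 117 (10.3%) and 6 of 109 (5.50%). Lin28a, Lin28b, Msi1, Plagl2 and Dlk1 had none, of 60, 76, 108, 41 and 48 eligible bins. The background over all protein-coding genes was 0.539% of bins, and no test was made because the genes were picked with values known.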
